A study of Mus musculus with 6 samples.

Results

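Keratins are the intermediate filament proteins of epithelial cells, and 10 of them that separate the cell layers of the mammary gland are described here in mouse mammary tumor cells. The members were set by name: the basal keratins Krt5, Krt14, Krt15, Krt17 and Krt6a, and the luminal keratins Krt7, Krt8, Krt18, Krt19 and Krt23. All 10 were among the 22310 genes of the deposited table, which held 35 of the 53 protein-coding keratin genes of the mouse annotation. The tumors came from MMTV-PyMT mice of the FVB/N strain, in which the mouse mammary tumor virus promoter drives the polyoma middle T oncogene in mammary epithelium, and all samples carry this transgene on an otherwise wild type genotype. The tumors were taken from adult mice a few months old. Tumor cells were kept overnight in culture in medium with serum, insulin and EGF, and were then sorted after removal of cells with the lineage markers Ter119, CD31 and CD45. The metastasis initiating cells (MIC) were the CD24+CD90+ cells and the non-MIC were the CD24+CD90- cells, with 3 RNA-seq libraries of each, numbered 1 to 3. The labels do not say whether a library came from 1 mouse or from pooled mice, so the p-values measure the spread between these samples.

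A keratin filament is built from pairs of a type I and a type II protein, so that every epithelial cell makes at least one of each. Krt8 (type II) and Krt18 (type I) are the pair of simple epithelia and of the luminal cells that line the mammary ducts, joined there by Krt7 (type II) and Krt19 (type I). Krt5 (type II) and Krt14 (type I) are the pair of the basal layer of stratified epithelia and of mammary basal and myoepithelial cells, the contractile cells that lie between the luminal cells and the basement membrane. Krt17 (type I) and Krt6a (type II) are made in skin appendages and in wounded or activated epithelium, Krt15 is a type I keratin of basal cells of stratified epithelia, and Krt23 is a type I keratin of simple epithelia.

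The type II members lie together on chromosome 15 and most type I members lie on chromosome 11 (GRCm38). On the minus strand of chromosome 15, Krt6a is at chr15:101689910-101694307 and Krt5 is at chr15:101707070-101712898, with 12.8 kb between them. Krt8 is at chr15:101996698-102004482 on the minus strand, and 23.7 kb further on its partner Krt18 is at chr15:102028180-102032027 on the plus strand, the only type I member on this chromosome. Krt7 is at chr15:101411043-101430313 on the plus strand. On the minus strand of chromosome 11, Krt23 is at chr11:99477974-99493137, Krt15 at chr11:100131758-100135928, Krt19 at chr11:100140810-100148665, Krt14 at chr11:100203162-100207548 and Krt17 at chr11:100256217-100261029. The luminal Krt19 is thus 4.88 kb from the basal Krt15.

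The stretches just upstream of Krt5, Krt8 and Krt18 are shown. Krt5 is the only member called between the populations, and only in fits with the replicate number as a block. Krt8 and Krt18 are the most abundant members and neighbours in the genome. The stretches were taken from RefSeq windows (GRCm38.p6), which were given for 6 of the 10 members, and keep only the bases that lie before the start of the gene in both annotations. They read 5′ to 3′ on the strand of the gene, and capitals mark a match to the AP-2 motif letters GCCNNNGGC. The Krt5 stretch is chr15:101712906-101713155 on the minus strand, the Krt8 stretch is chr15:102004483-102004592 on the minus strand and the Krt18 stretch is chr15:102027966-102028179 on the plus strand.
Krt5: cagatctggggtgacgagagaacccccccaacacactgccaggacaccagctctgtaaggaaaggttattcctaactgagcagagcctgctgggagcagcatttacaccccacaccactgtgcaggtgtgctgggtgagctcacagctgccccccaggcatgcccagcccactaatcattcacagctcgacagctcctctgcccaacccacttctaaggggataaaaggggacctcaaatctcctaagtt
Krt8: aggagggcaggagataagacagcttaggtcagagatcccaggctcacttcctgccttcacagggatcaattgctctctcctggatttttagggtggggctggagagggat
Krt18: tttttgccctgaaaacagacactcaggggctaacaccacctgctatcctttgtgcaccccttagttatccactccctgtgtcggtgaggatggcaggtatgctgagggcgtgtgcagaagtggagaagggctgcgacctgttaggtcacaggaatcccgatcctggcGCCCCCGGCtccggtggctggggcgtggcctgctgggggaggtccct
Of 4 motifs searched on both strands in the RefSeq windows, GCCNNNGGC was found in those of Krt18 and Krt7 and in 13.7% of 32851 mouse windows of the 250 bases before a RefSeq start. The Krt7 and Krt14 windows lie inside the gene as GENCODE annotates it and are not shown. For Krt7 and Krt14 no bases before the GENCODE start were searched. The GC box letters GGGCGG were found in the window of Krt7 alone among the 6 members, against 32.7% of all windows. The TATA box letters TATAAA and the AP-1 letters TGANTCA were found in none of the 6 windows, against 12.4% and 6.75% of all windows. A match here is a description of the letters and no measure of binding.

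The values are normalised read counts, which the submitters scaled so that each library sums to 34999999 to 35000001. The low values of each library were whole multiples of the value of 1 read, from which depths of 31467281 to 51759769 reads were recovered, so that 1 read was worth 0.676 to 1.11 normalised counts. Same-numbered MIC and non-MIC libraries deviated together across genes, with correlations of 0.573 to 0.746. The deviations were taken from each group's own mean, so they sum to 0 for a gene. Positive values for the same number therefore force negative ones for different numbers (-0.194 to -0.536), which add no separate evidence. Same-numbered libraries are called pairs 1, 2 and 3, and differences are given per pair as well as between the groups. Thy1, which encodes the CD90 used for sorting, had normalised counts of 1509, 301 and 755 in MIC 1, 2 and 3 and of 16.9, 21.1 and 12.6 in non-MIC 1, 2 and 3. All 6 libraries followed their labels for this gene.

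The luminal keratins were the dominant keratins of both populations. Per kilobase of exon, the mean level over the 6 libraries was 142844 normalised counts for Krt18, with a range of 67672 to 225153, and 89978 for Krt8, with a range of 41542 to 149979. Krt17 was the most abundant basal keratin, at a mean of 29150 per kilobase and a range of 10237 to 71131. It was followed by Krt7 at 15616, Krt14 at 9313, Krt19 at 5219, Krt5 at 1368 and Krt6a at 359 per kilobase. Krt23 and Krt15 were close to the limit of detection, at 11.5 and 5.15 per kilobase, with only 4 to 42 reads for Krt23 and 6 to 12 reads for Krt15 in a library. Krt18 was above Krt8, Krt8 above Krt17, Krt19 above Krt5, Krt5 above Krt6a and Krt6a above Krt23 in 6 of 6 libraries. The order of Krt17 over Krt7 and of Krt14 over Krt19 held in only 4 of 6 libraries. With the length of a single coding transcript, Krt17 kept the higher mean (29150 against 26888 for Krt7) but was above Krt7 in 2 of 6 libraries, and Krt5 was above Krt6a in 5 of 6.

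**Figure D1:**
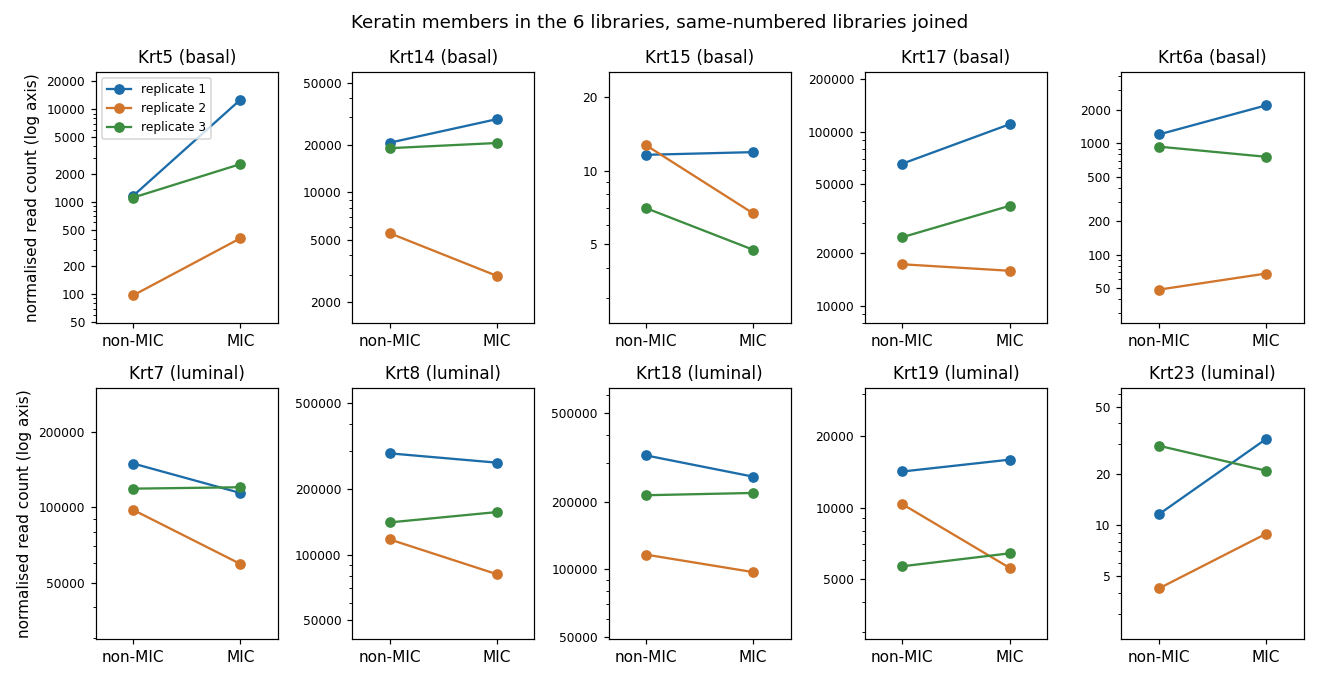
Normalised read counts of the 10 keratins (log axis, 1 panel per gene) in MIC and non-MIC cells. Points are single libraries, and lines join the libraries of the same number. Krt5 is higher in MIC in each pair, while the lines of most other members are close to level or run in different directions, and pair 2 is the lowest in both populations for all members but Krt15 and Krt19.

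Krt5 was the member with the largest difference between MIC and non-MIC. Its normalised counts were 12705, 403 and 2554 in MIC 1, 2 and 3, and 1161, 97.2 and 1110 in non-MIC 1, 2 and 3. MIC was higher in every pair, but the groups overlapped, because MIC 2 lay below non-MIC 1 and 3. The pair differences were 10.9-fold, 4.14-fold and 2.3-fold. On the log2(value + 1) scale the means were 11.20 ± 2.49 in MIC and 8.97 ± 2.04 in non-MIC (SD, n = 3 each), a difference of 2.23 ± 0.31 (SE, limma with the replicate number as a block; 95% interval 1.57 to 2.89, adjusted p = 0.0121). Without the block the same difference had an SE of 1.36, an interval of -0.94 to 5.40 and an adjusted p of 1, and it was 1.02 without MIC 1, 1.05 without non-MIC 2 and 3.50 without MIC 2. With the block, edgeR on the recovered reads gave a log2 difference of 2.24 (adjusted p = 9.89e-21), and DESeq2 gave 2.25 (adjusted p = 0.0317). When pair 3 was left out, the blocked difference was 2.74 and the call was lost (limma adjusted p = 0.453), but no gene of the table passed there. The Krt5 call remained without pair 1 (1.62, limma adjusted p = 0.0222) and without pair 2 (2.33, limma adjusted p = 0.0295). In sorted bulk samples such as these, more cells of a kind and more RNA per cell cannot be told apart.

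Krt14, the usual filament partner of Krt5, was present at 29274, 2946 and 20642 normalised counts in MIC 1, 2 and 3 and at 20730, 5507 and 19135 in non-MIC 1, 2 and 3. MIC was higher in pairs 1 and 3 and lower in pair 2, and the groups overlapped. The blocked difference was -0.10 ± 0.24 on the log2 scale (SE, 95% interval -0.61 to 0.41, limma adjusted p = 0.892), so that the upper end of the Krt14 interval lay below the lower end of the Krt5 interval. The ratio of Krt14 to Krt5 per kilobase of exon was 2.88, 9.15 and 10.1 in MIC 1, 2 and 3 and 22.3, 70.8 and 21.6 in non-MIC 1, 2 and 3. The groups did not overlap in this ratio, and in all libraries there was more Krt14 than Krt5 RNA per length. This ratio carries the Krt5 difference and is no separate result. The ratio of Krt17 to Krt5 per kilobase was 12.3, 55.9 and 20.8 in MIC 1, 2 and 3 and 79.9, 252 and 31.6 in non-MIC 1, 2 and 3, and the groups overlapped in it.

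Krt17, a keratin of activated epithelium, had normalised counts of 110324, 15878 and 37491 in MIC 1, 2 and 3 and 65506, 17303 and 24768 in non-MIC 1, 2 and 3. It was 1.68-fold and 1.51-fold higher in MIC in pairs 1 and 3 and was 0.918 of the non-MIC value in pair 2, and its blocked log2 difference of 0.41 ± 0.22 (SE, 95% interval -0.069 to 0.89) did not pass the test (limma adjusted p = 0.496). Krt6a, a type II keratin of the same settings, had 2198, 67.8 and 759 normalised counts in MIC 1, 2 and 3 and 1204, 48.6 and 936 in non-MIC 1, 2 and 3. Its level followed the pair and not the population: pair 2 was far below pairs 1 and 3 in both populations, and the blocked log2 difference was 0.35 ± 0.23 (SE, 95% interval -0.16 to 0.85, limma adjusted p = 0.584). Krt15 was measured by few reads, with 11.9, 6.67 and 4.73 normalised counts in MIC 1, 2 and 3 and 11.6, 12.7 and 7.01 in non-MIC 1, 2 and 3. The groups overlapped, and a difference of the size of its interval (-1.52 to 0.66 on the log2 scale) was not detectable at this depth.

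Krt5 and Krt6a are close relatives, and reads from a stretch that genes share cannot be told apart between them. The study's methods give 75 sequencing cycles and no read length for each end, so the shares below are approximate. In 75-base windows, 5.18% of the Krt5 exon sequence was shared with another gene, mainly Krt6a, and 42.3% of the Krt6a sequence was shared, mainly with Krt6b. For Krt8 this share was 22%, mainly with the pseudogene Krt8-ps, and for Krt14 it was 5.91%, mainly with Krt16. The recovered reads of Krt8-ps were 95 to 950 per library and those of Krt6b 0 to 127. Paired reads that extend beyond the window can be told apart more often than these shares give.

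Among the luminal keratins no member passed the test in either direction. Krt8 had normalised counts of 266033, 81339 and 157343 in MIC 1, 2 and 3 and 293659, 117708 and 140976 in non-MIC 1, 2 and 3. Its partner Krt18 had 259924, 97244 and 219800 in MIC 1, 2 and 3 and 323545, 116432 and 214660 in non-MIC 1, 2 and 3. Both were lower in MIC in pairs 1 and 2 and slightly higher in pair 3, and the spread between pairs was larger than the spread between populations. The blocked log2 differences were -0.17 ± 0.27 for Krt8 (SE, 95% interval -0.75 to 0.41, limma adjusted p = 0.829) and -0.18 ± 0.27 for Krt18 (SE, 95% interval -0.76 to 0.40, limma adjusted p = 0.825).

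Krt7, a type II keratin of glandular ducts, had 114221, 59486 and 120416 normalised counts in MIC 1, 2 and 3 and 149723, 97760 and 118865 in non-MIC 1, 2 and 3. It was lower in MIC in pairs 1 and 2 and nearly equal in pair 3, and of the 10 members it spread least over the libraries, by 2.52-fold from the lowest to the highest. Krt19 had 15910, 5576 and 6419 normalised counts in MIC 1, 2 and 3 and 14185, 10332 and 5663 in non-MIC 1, 2 and 3. Krt23 had 32.3, 8.9 and 21 in MIC 1, 2 and 3 and 11.6, 4.23 and 29.5 in non-MIC 1, 2 and 3. The groups overlapped for all 3 genes, and the 95% intervals of the blocked log2 difference were -0.91 to 0.18 for Krt7, -0.65 to 0.28 for Krt19 and -0.48 to 1.71 for Krt23. These intervals leave room for changes in either direction, with limma adjusted p-values of 0.593, 0.769 and 0.651.

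**Figure D2:**
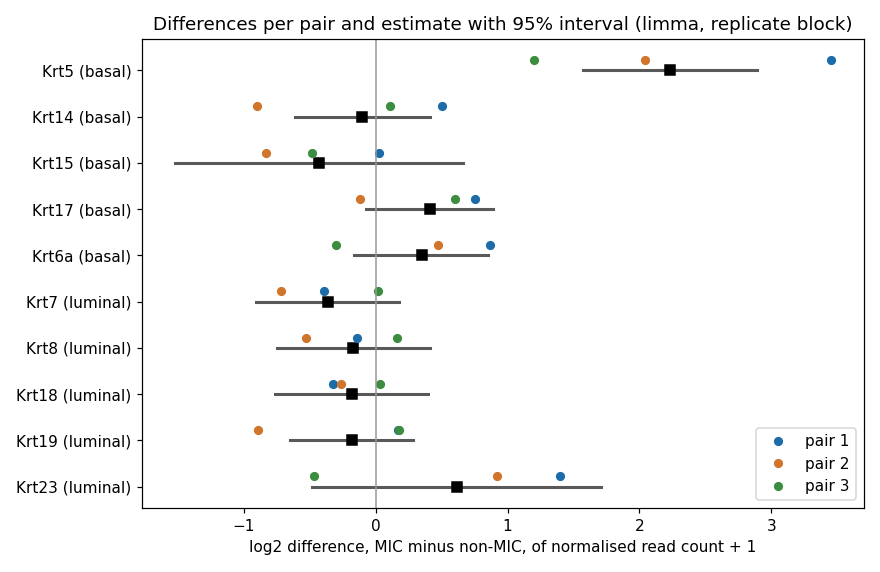
Difference in log2(normalised read count + 1) between MIC and non-MIC for the 10 keratins. Points are the 3 pairs of same-numbered libraries, and bars are the blocked limma estimate with its 95% interval. The Krt5 interval of 1.57 to 2.89 is the only one of the 10 that does not hold 0.

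Counted over the list, 0 of the 10 keratins passed the test without the block, where 0 of all genes did (0%). With the block, 1 of 10 was higher in MIC (Krt5), beside 27 of 22310 genes (0.121%), and 0 of 10 were lower, beside 2 genes (0.00896%). By edgeR with the block, Krt5 was again the single member called higher, where 1.04% of all genes were. Krt5 was also the single member higher in MIC in all 3 pairs, beside 12.5% of all genes, and 0 of 10 were lower in all 3 pairs, beside 18.8%. For 0 of 10 did the groups not overlap, beside 6.24% of all genes. The median log2 difference was 0.35 over the 5 basal keratins, -0.18 over the 5 luminal keratins and -0.045 over all genes. By pair, the basal median was 0.75, -0.12 and 0.11 and the luminal median was -0.14, -0.53 and 0.034 in pairs 1, 2 and 3, so the basal list was above the luminal list in each pair, although its direction was not the same in all pairs.

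The replicate number accounted for most of the variation of every member. Its share of the sum of squares on the log2 scale was highest for Krt6a, at 98%, and lowest for Krt15, at 64.9%. The replicate number has more degrees of freedom than the population, and its share over all genes is not given. A high share is thus not shown to be particular to the keratins. The population accounted for 26.5% for Krt5 and for 0.167% for Krt14. From the lowest to the highest library Krt5 spanned 131-fold, Krt6a 45.2-fold and Krt14 9.94-fold, while Krt8 spanned 3.61-fold and Krt18 3.33-fold. The libraries of replicate 2 were the lowest in both populations for the basal Krt5, Krt14, Krt17 and Krt6a and for the luminal Krt7, Krt8, Krt18 and Krt23, and not for Krt15 and Krt19.

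As a share of the level of all 10 keratins per kilobase of exon, the basal keratins made up 21.7%, 9.13% and 12.8% in MIC 1, 2 and 3 and 12%, 8.21% and 10.3% in non-MIC 1, 2 and 3. The share was higher in MIC in every pair, and the groups overlapped. In pair 2 the basal level itself was lower in MIC (12128 against 14360 per kilobase), as was the luminal level (120664 against 160582). Most of it was Krt17, with 16.3%, 7.71% and 8.3% in MIC 1, 2 and 3 and 9.2%, 6.38% and 5.93% in non-MIC 1, 2 and 3. Krt5 made up no more than 1.33% of the keratin level in any library. The ratio of type I to type II level, which the pairing of the proteins does not fix at the RNA level, was 1.75, 1.65 and 1.94 in MIC 1, 2 and 3 and 1.67, 1.36 and 2 in non-MIC 1, 2 and 3. Type I RNA was thus above type II RNA per length in 6 of 6 libraries, and the groups overlapped. Without division by length the ratio was below 1 in 3 of 6 libraries, at 0.861 in MIC 2, 0.951 in non-MIC 1 and 0.694 in non-MIC 2.

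**Figure D3:**
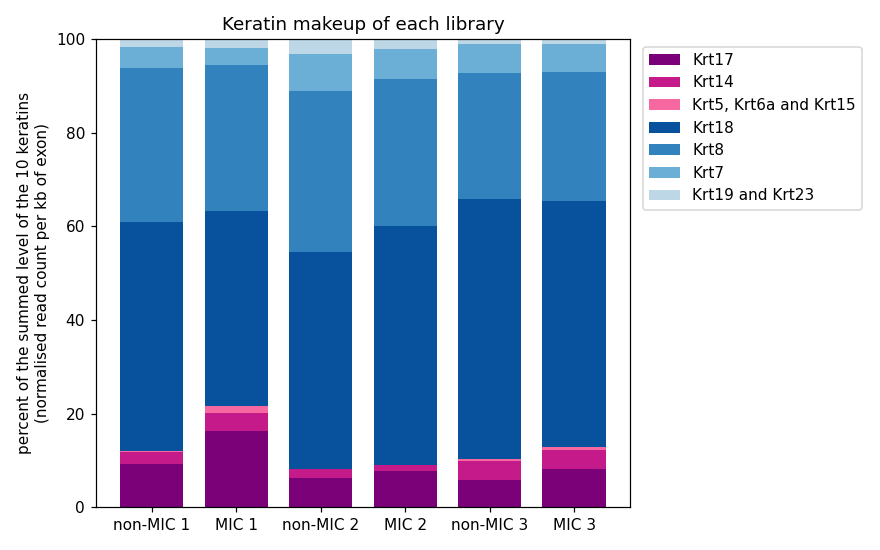
Share of each keratin in the summed level of the 10 keratins per kilobase of exon, in percent, for each of the 6 libraries. Krt18 and Krt8 take the largest shares in all libraries, and the basal share is highest in MIC 1 at 21.7%.

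Of the other 25 keratins in the table, 11 had fewer than 10 reads in every library. With the block, 1 of the 25 was higher in MIC (Krt20) and 0 were lower, beside 0.121% and 0.00896% of all genes, and 5 were higher and 5 lower in all 3 pairs, beside 12.5% and 18.8%. Of the 5 higher genes, 3 (Krt13, Krt76 and Krt78, named after their values were seen) had no more than 5 reads in any library. Krt20, a type I keratin of gut epithelium and urothelium, had normalised counts of 1616, 438 and 35.2 in MIC 1, 2 and 3 and 240, 171 and 11.9 in non-MIC 1, 2 and 3. It was higher in MIC in every pair (log2 difference 1.86, limma adjusted p = 0.0391 with the block). The call was lost without pair 1 (limma adjusted p = 0.991) and without pair 3 (limma adjusted p = 0.453), where no gene of the table passed. Krt80, the most abundant of the 25, had 5874, 2037 and 6157 in MIC 1, 2 and 3 and 10005, 3679 and 6280 in non-MIC 1, 2 and 3, and did not pass the test (-0.55, limma adjusted p = 0.417). Krt16, a partner of Krt6a in activated epidermis, had 266, 654 and 1724 in MIC 1, 2 and 3 and 706, 1017 and 2244 in non-MIC 1, 2 and 3. It was lower in MIC in every pair and was called by edgeR with the block (adjusted p = 0.00872) but not by limma (-0.81, adjusted p = 0.294). By edgeR with the block 1 of the 25 was higher (Krt20) and 2 were lower, beside 232 higher and 83 lower of all 22310 genes. The second gene called lower was Krt79, named after its values were seen (edgeR adjusted p = 0.02). It was lower in MIC in every pair and was not called by limma (-1.19, adjusted p = 0.306).

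Keratin filaments end on desmosomes and hemidesmosomes, and of the 21 listed genes of these junctions and of other keratin partners in the table, 1 was higher in MIC with the block and 0 were lower, beside 0.121% and 0.00896% of all genes. By edgeR with the block 2 were higher and 2 lower, beside 232 higher and 83 lower of all 22310 genes. In all 3 pairs 3 were higher and 7 lower, beside 12.5% and 18.8% of all genes. The gene called by limma was Dsc3, a desmosomal cadherin of basal layers, with 189, 10 and 78.4 normalised counts in MIC 1, 2 and 3 and 37, 1.06 and 11.9 in non-MIC 1, 2 and 3. It was higher in MIC in every pair (log2 difference 2.45, limma adjusted p = 0.0462 with the block), although non-MIC 2 held a single read. The call was lost without pair 1 (limma adjusted p = 0.699) and without pair 3 (limma adjusted p = 0.453), where no gene of the table passed. The median log2 difference of the 21 genes was -0.036, beside -0.045 for all genes.

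Of the 15 listed basal and myoepithelial markers other than keratins, 5 were higher in MIC with the block and 0 were lower, 9 were higher in all 3 pairs, and the median log2 difference was 1.25, beside 0.121%, 0.00896%, 12.5% and a median of -0.045 for all genes. By edgeR with the block 9 were higher and 0 lower, beside 232 higher and 83 lower of all 22310 genes. Acta2, smooth muscle actin, had 230574, 3765 and 9839 normalised counts in MIC 1, 2 and 3 and 48582, 724 and 1581 in non-MIC 1, 2 and 3 (log2 difference 2.42, limma adjusted p = 3.12e-05 with the block). The actin-binding Tagln and Cnn1, the smooth muscle myosin Myh11 and the kinase Mylk were also higher in MIC, with log2 differences of 2.67, 2.23, 2.58 and 1.46 and limma adjusted p-values of 9.98e-06, 5.31e-05, 6.28e-05 and 0.0462 with the block. The Mylk call was lost whichever pair was left out (adjusted p = 0.991, 0.0653 and 0.453 without pair 1, 2 and 3), and the calls of the other 4 genes were lost without pair 3 (adjusted p = 0.453), where no gene of the table passed. MIC 1 and non-MIC 1 stood above all other libraries for these genes, as they did for Krt17. Several of the 5 genes are also made by smooth muscle cells, pericytes and activated fibroblasts.

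**Figure D4:**
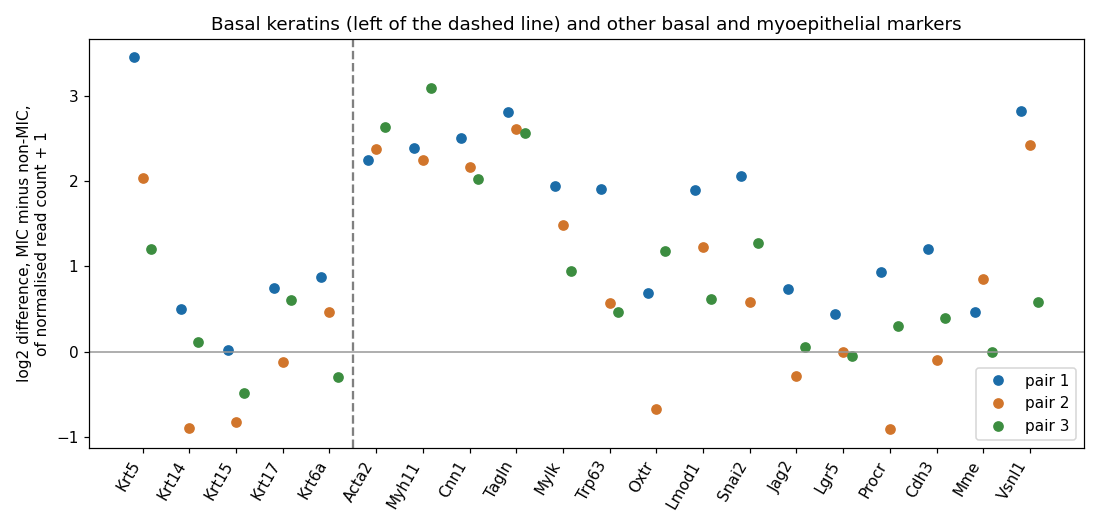
Difference in log2(normalised read count + 1) between MIC and non-MIC for the 5 basal keratins, left of the dashed line, and 15 other basal and myoepithelial markers, right of it. Points are the 3 pairs. Of the 15 other markers, 9 lie above 0 in every pair, among them Acta2, Myh11, Cnn1, Tagln and Mylk, and the rest do not. Of the basal keratins, Krt5 lies above 0 in every pair, while Krt14, Krt15, Krt17 and Krt6a lie on both sides of 0.

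Of the 17 listed luminal genes other than keratins, 0 were higher and 1 was lower in MIC with the block, and 7 were lower in all 3 pairs, beside 0.121%, 0.00896% and 18.8% of all genes. By edgeR with the block 0 were higher and 4 were lower, beside 232 higher and 83 lower of all 22310 genes. The gene called by limma was Ltf, the milk protein lactoferrin, with 2365, 37.8 and 1620 normalised counts in MIC 1, 2 and 3 and 8917, 144 and 2966 in non-MIC 1, 2 and 3 (log2 difference -1.56, limma adjusted p = 0.0122 with the block). This call was lost without pair 1 (limma adjusted p = 0.233) and without pair 3 (limma adjusted p = 0.453), where no gene of the table passed. The epithelial adhesion genes Epcam and Cdh1 differed by -0.22 and -0.21 on the log2 scale and did not pass the test (limma adjusted p = 0.658 and 0.709 with the block). The median of the 17 genes was -0.21, close to that of the luminal keratins.

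Markers of other cell types were measured beside these results. The 10 fibroblast markers summed to 2814 to 8033 normalised counts in MIC and 771 to 7009 in non-MIC. With the block, limma called 0 and edgeR called 3 higher, beside 1.04% of all genes by edgeR. In all 3 pairs 5 were higher, beside 12.5%. The 3 were Pdpn, Col1a2 and Dcn (edgeR adjusted p = 1.69e-09, 7.89e-12 and 0.0152), with Dcn named after its values were seen. Pdpn was the most abundant, with 4716, 7420 and 532 normalised counts in MIC 1, 2 and 3 and 713, 6292 and 174 in non-MIC 1, 2 and 3. It made up most of the sums of 6821 in MIC 1, 8033 in MIC 2 and 7009 in non-MIC 2. Col1a1 was lower in MIC in pairs 1 and 2 and higher in pair 3. The same held for Col3a1 and Col6a3, named after their values were seen. The log2 difference was above 0 for 9 of the 10. The 6 pericyte markers summed to 398 to 612 in MIC and 355 to 986 in non-MIC, the 6 endothelial markers to 35.2 to 57.1 and 25.4 to 47.7, and the 9 epidermal markers to 694 to 1178 and 824 to 1442, with 0 called by limma in each list. Of the 6 pericyte markers, 3 were higher in all 3 pairs, beside 12.5% of all genes, and 1 was called higher by edgeR with the block, beside 1.04%. The called gene was Cspg4, the NG2 proteoglycan of pericytes, named after its values were seen, with 47.4, 13.3 and 68.3 normalised counts in MIC 1, 2 and 3 and 13.8, 4.23 and 9.12 in non-MIC 1, 2 and 3 (edgeR adjusted p = 0.000684). Notch3, the most abundant of the 6, had 273, 514 and 197 in MIC 1, 2 and 3 and 751, 494 and 304 in non-MIC 1, 2 and 3. It was lower in MIC in pairs 1 and 3 (log2 difference -0.68, limma adjusted p = 0.419 with the block). The log2 difference was above 0 for 4 of the 6. The 6 immune and erythroid markers summed to 204 to 1991 in MIC and 224 to 1201 in non-MIC, with 0 called, and Ptprc, the CD45 gene used for depletion, was at 0 in MIC 1 and non-MIC 1, at 10 and 9.47 normalised counts in MIC 2 and 3 and at 6.34 and 2.1 in non-MIC 2 and 3. The part of these cells in the Krt5 difference was not tested.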

How the data were processed

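RNA of sorted MIC and non-MIC cells was sequenced from TruSeq stranded mRNA libraries with paired reads. According to the submitters' processing notes, STAR and HTSeq were used with GRCm38, while the study's methods name Bowtie2 and samtools, and versions are not given in the sources used here. The authors deposited 1 table of normalised counts (a signal scaled to equal library totals), in which each of the 22310 genes was above 0 in at least 3 libraries. From 99.99 to 100% of the values were whole multiples of the value of 1 read, and those reads were recovered.

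Groups and replicate numbers were taken from the labels. The table's Ensembl IDs were matched to GENCODE GRCm38 symbols (22161 of 22310). The main test was limma 3.58.1 with a mean-variance trend on log2(value + 1), without a block. It compared MIC against non-MIC over the 6 libraries, with Benjamini-Hochberg adjustment over all genes at 0.05. The numbers paired the samples (correlations of deviations 0.573, 0.668 and 0.746), so blocked fits are given. Alternatives were edgeR 4.0.16 (quasi-likelihood) and DESeq2 1.42.0 on recovered reads, other pseudocounts, filters and scalings, and leaving out libraries and pairs. Fits were tested on simulated data. The recovered reads per library were 32458499, 31467281 and 51759769 in MIC and 33069114, 33126717 and 49904738 in non-MIC. Named genes were the members, Thy1, Cd24a (log2 difference -0.015), the 3 most abundant other keratins, the 4 most abundant genes of each list and those called with the block, and of these the text prints the ones a result turned on. The epidermal and immune lists had 9 of 15 and 6 of 10 genes in the table. The members and lists were chosen with earlier results of these data known.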

Additional observations from a re-analysis of the deposited data

How the results depend on the processing

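Without the block, 0 genes passed the limma test (322 at an unadjusted p under 0.05), and this count was also 0 by edgeR (295 unadjusted), at pseudocounts of 0.1 and 10, and with each library left out. With the replicate block 29 genes passed by limma, 315 by edgeR, 133 by DESeq2 and 32 after TMM rescaling, the last chosen after seeing the data, and 1 passed by DESeq2 without the block. Leaving out a pair from the blocked limma fit gave 0 to 59 genes, with 11 without pair 1, 59 without pair 2 and 0 without pair 3. Krt5 was 2.23 by blocked limma, 2.24 by blocked edgeR, 2.25 by blocked DESeq2 and 2.23 after TMM rescaling with the block, and 1.62 to 2.74 with a pair left out, with 2.33 without pair 2, and without the block it ranged from 1.02 to 3.50 with a library left out. Krt14 turned to 0.27 by edgeR and 0.30 by DESeq2 without the block, and ranged from -0.73 to 0.92 with a library and from -0.40 to 0.30 with a pair left out. With a library left out, the log2 difference ranged from -0.32 to 1.08 for Krt17, -1.13 to 1.76 for Krt6a, -0.58 to 0.27 for Krt8, -0.57 to 0.25 for Krt18, -0.65 to 0.12 for Krt19 and -0.02 to 1.25 for Krt23. The same range was -0.29 to 2.97 for Mylk, -3.28 to 0.32 for Ltf, -0.56 to 0.13 for Epcam and -0.52 to 0.12 for Cdh1, and the medians ranged from -0.73 to 1.08 for the basal and -0.51 to 0.25 for the luminal keratins. With a pair left out, the range was -0.34 to 0.008 for Krt8 and -0.36 to 0.17 for Krt19. Leaving out 1 library unbalances the pairs, and the cause of the other shifts was not tested. Krt15 and Krt23 have no value under the filter on low means. Depth limits these 2 genes, with 4 to 42 reads per library.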

Other observations

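The genes whose log2 level over the 6 libraries correlated most with that of Krt5, among 11125 compared, were Zmpste24, Slc16a7 and Vgll3, with Pearson r of 0.995, 0.986 and 0.985. Pearson r takes no account of the size of a change. Zmpste24 ranged only from 3446 normalised counts in non-MIC 2 to 4655 in MIC 1, against 97.2 to 12705 for Krt5 in the same libraries. For Krt8 they were Gpsm1, Sparcl1 and Rab3d, with r of 0.995, 0.994 and 0.992. These are descriptions over 6 points that share libraries and pairs.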
